A study of Mus musculus with 26 samples.

Results

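Complement is a cascade of plasma and cell surface proteins, and 9 of its genes were followed here in primary mouse keratinocytes, the epithelial cells of the epidermis. The genes are *C3*, *Cfb*, *Cfi*, *C1ra*, *C1s1*, *C4b*, *Cd55*, *Cd59a* and *Serping1*. They were picked by symbol, with earlier results of these data known, from the 56738 gene symbols of the count table. All 9 were listed there. Of these, 6 (*C3*, *C1ra*, *C1s1*, *C4b*, *Cd55* and *Cd59a*) were expressed over the level set for testing, a normalized count of more than 10 on average over the 26 libraries, as were 16893 genes in all. *Cfb*, *Cfi* and *Serping1* lay under it and are described by their counts.

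In the classical pathway the proteases C1r and C1s, bound to C1q, cleave C4 and C2, while factor B and factor D drive the alternative pathway. Both routes cleave C3, the central component, whose fragments coat surfaces and release a small inflammatory peptide. Host cells protect themselves with membrane proteins such as CD55, which dissociates the C3 convertases, and CD59, which blocks the membrane attack complex, and with the soluble C1 inhibitor (*Serping1*) and factor I (*Cfi*). Most complement protein in plasma comes from the liver, but epithelial cells including keratinocytes also make components, and cytokines are known to raise several of them.

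RNA was sequenced from WT and *Pla2g4d*-deficient (KO) C57BL/6NJ mice aged 2 days, with 5 WT and 8 KO animals. Keratinocytes of each animal were cultured for 4 days in medium with 0.06 mM CaCl2 and then either left under basal conditions or treated with the psoriasis-related cytokines IL17A and TNFα, each at 20 ng/ml, for 24 h. This gave 26 libraries in 4 groups, namely WT basal (n = 5), WT with cytokines (n = 5), KO basal (n = 8) and KO with cytokines (n = 8). The KO animals lack a region containing exon 3 of *Pla2g4d*, a cytosolic phospholipase gene, in all cells through a single CRISPR-made allele and were bred as homozygotes, and the wells of an animal were pooled, so a library is 1 animal in 1 condition. Litters and sequencing batches were not given in the sources used here, and the study did not consider the sex of the animals. Libraries with the same genotype and number in their titles were taken to come from the same animal.

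Total counts lay between 42072745 and 78102858 per library (median 53126822), so that 3 counts corresponded to 0.0387 to 0.0709 CPM, the field's unit of counts scaled to library size (here with TMM factors). All 12 keratinocyte markers were over 1 CPM in every group. The summed fibroblast markers lay between 32.4 and 49.2 CPM and were mostly *Fbln1*, while *Lum* and *Dpt* stayed under 0.2 CPM. The summed immune markers lay between 20.8 and 56.4 CPM and were mostly *Cd68* and *Lyz2*, with *Cd207* and *H2-Aa* at 0 counts and *Ptprc* under 0.12 CPM in all libraries. The 6 melanocyte markers summed to 306 to 628 CPM, so melanocytes were present in the cultures. *Pla2g4d* reached 3.35 ± 1.36 and 2.06 ± 0.716 CPM (SD) in WT and KO cells under basal conditions. This was a log2 difference of -0.70 (adjusted p = 0.0935 in the edgeR test described below). Counts per gene do not check the loss of exon 3. The study checked it by RT-PCR and reported no reads in exon 3 of KO cells with cytokines.

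On GRCm39, *C3* lies on chromosome 17 from 57510964 to 57535155, and *C4b* (34947354 to 34962912) and *Cfb* (35074852 to 35081559) lie on the same chromosome. *C1ra* (124489364 to 124500402) and *C1s1* (124507297 to 124559389) are neighbours on chromosome 6, on opposite strands. *Cd55* lies on chromosome 1 (130366469 to 130390926), *Cfi* on chromosome 3 (129629533 to 129668981), and *Serping1* (84595705 to 84620873) and *Cd59a* (103926132 to 103947029) on chromosome 2. Exons of *C3*, *C1ra*, *C4b*, *Cd59a*, *Cfi* and *Serping1* shared no bases with another gene of the count table, whereas 16.6% of the exon bases of *C1s1* and 11.5% of those of *Cd55* overlap a gene on the opposite strand. For *Cfb*, 65.7% of the exon bases are shared with the readthrough gene *Gm20547* on the same strand, which had 0 counts in all libraries, and 21.8% are shared with no gene on either strand.

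The 250 bases before the transcription start are shown for the 4 genes called in WT cells with cytokines (*C3*, *C1ra*, *C1s1* and *Cd55*), because 3 of them rose together and the other fell. They are RefSeq sequences of GRCm38.p6, written 5′ to 3′ on the strand of the gene, from chr17:57228137-57228386 (minus strand), chr6:124512371-124512620 (plus), chr6:124542360-124542609 (minus, the more upstream of 2 overlapping windows) and chr1:130462745-130462994 (minus). Capitals mark a match to 1 of 4 patterns searched on both strands, namely GGNNTTNCC (NF-κB type), TTGCNNAA (C/EBP type), TTCNNNGAA (STAT type) and GAAANNGAA (interferon response element type).
*C3*: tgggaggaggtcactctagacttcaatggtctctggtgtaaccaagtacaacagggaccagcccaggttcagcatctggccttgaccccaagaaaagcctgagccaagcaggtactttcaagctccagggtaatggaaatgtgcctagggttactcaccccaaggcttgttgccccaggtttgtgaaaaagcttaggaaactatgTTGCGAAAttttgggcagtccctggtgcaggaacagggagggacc
*C1ra*: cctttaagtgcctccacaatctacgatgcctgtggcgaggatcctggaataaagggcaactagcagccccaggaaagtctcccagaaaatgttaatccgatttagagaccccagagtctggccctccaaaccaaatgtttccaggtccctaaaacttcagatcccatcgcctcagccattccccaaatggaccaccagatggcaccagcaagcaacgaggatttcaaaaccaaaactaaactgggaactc
*C1s1*: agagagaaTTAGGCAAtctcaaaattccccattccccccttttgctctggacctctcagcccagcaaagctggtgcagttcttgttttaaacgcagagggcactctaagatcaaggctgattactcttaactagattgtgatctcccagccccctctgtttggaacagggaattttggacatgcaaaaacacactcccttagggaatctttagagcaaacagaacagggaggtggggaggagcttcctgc
*Cd55*: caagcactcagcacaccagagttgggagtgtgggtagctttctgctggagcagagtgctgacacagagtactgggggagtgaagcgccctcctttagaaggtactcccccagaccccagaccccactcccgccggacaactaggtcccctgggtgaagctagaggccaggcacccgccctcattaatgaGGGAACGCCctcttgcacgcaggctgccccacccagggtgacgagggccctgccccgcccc
The *C3* window held the C/EBP type pattern from 45 to 38 bases before the start. The *C1s1* window held it on the opposite strand, 242 to 235 bases before the start, outside the window of the other start. *Cd55*, which fell, held the NF-κB type pattern on the opposite strand (61 to 53 bases before the start), and *C1ra* held none of the 4. Among all 32851 promoter windows of this length, 13.5% held the NF-κB type, 9.6% the C/EBP type, 7.0% the STAT type and 7.1% the interferon response element type. The RefSeq table matched 5 of the 9 genes. The fifth, *Cd59a*, held the interferon response element type 187 to 179 bases before the start, and *Cfb*, *Cfi*, *C4b* and *Serping1* were not matched.

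The first comparison asked how the complement genes respond to IL17A and TNFα in WT cells. *C3*, *C1ra* and *C1s1* rose and *Cd55* fell, which is 4 of the 6 tested genes, where 13.9% of all 16893 genes tested were called (8.65% higher, 5.26% lower). Calls required a fold change above 1.5 together with an adjusted p below 0.1 in the quasi-likelihood test of edgeR, with Benjamini-Hochberg adjustment over every gene tested. Errors of fold changes are approximate standard errors (SE), the absolute log2 fold change over the square root of the F statistic of that test. The median log2 fold change of the 6 genes was 1.56, against 0.01 over all genes tested. In KO cells *C3*, *C1ra*, *C1s1* and *C4b* rose, again 4 of 6, where 10.9% of all genes were called (6.33% higher, 4.55% lower), and the median was 1.33. The genes were chosen with earlier results of these data known, so an excess over the share of all genes describes this list only. Because the RNA came from whole cultures, a change in RNA per cell and a change in the share of cells carrying it cannot be told apart.

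**Figure D1:**
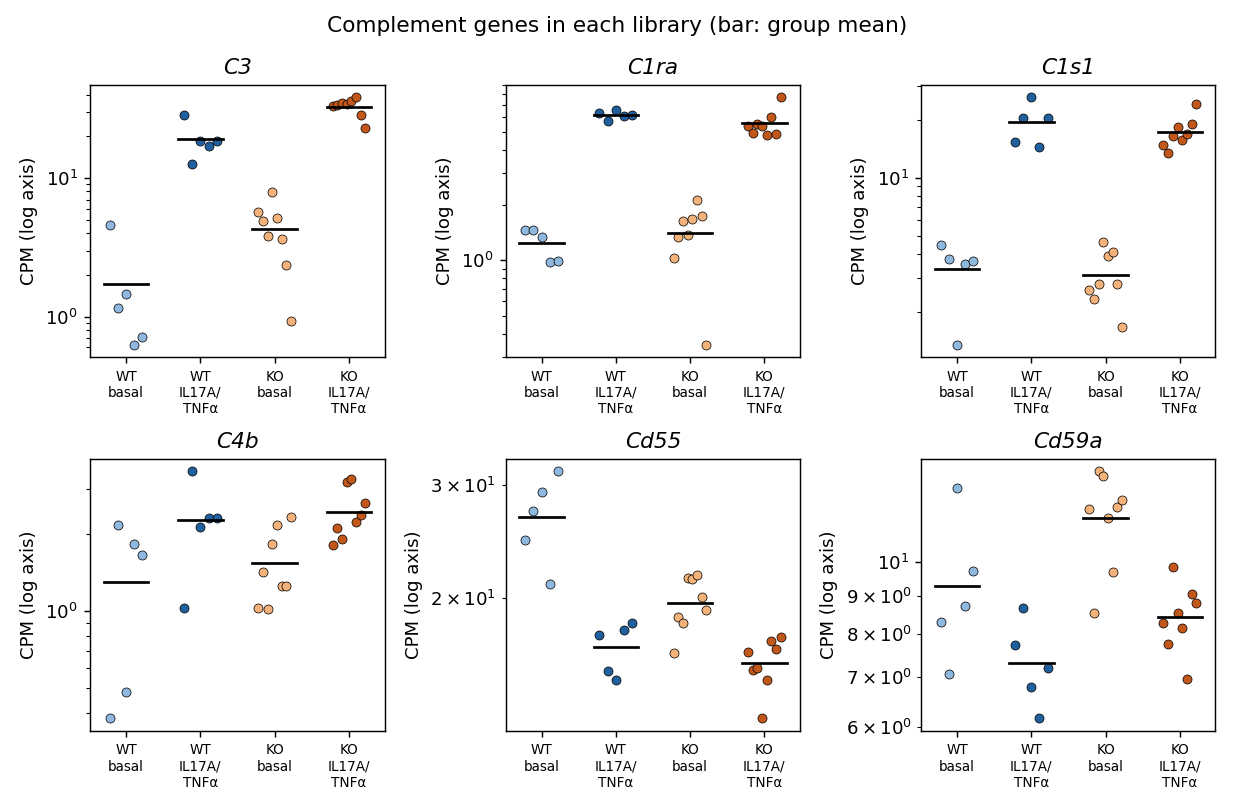
CPM on a log axis of the 6 tested complement genes in each of the 26 libraries, in 4 groups (5 WT and 8 KO animals, basal or with IL17A and TNFα), where each point is a library and the bar is the group mean. For *C3*, *C1ra* and *C1s1* every library with cytokines lies above every basal library of its genotype, with *C3* at 12.6 CPM or more with cytokines and 7.89 CPM or less without.

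*C3* is cleaved by both convertases and is the component on which all pathways converge. In WT cells it stood at 4.62, 1.15, 1.45, 0.629 and 0.709 CPM under basal conditions (replicates 1 to 5) and at 28.6, 12.6, 18.4, 17.0 and 18.5 CPM with cytokines. In KO cells it ranged from 0.929 to 7.89 CPM (median 4.38) under basal conditions and from 23.0 to 38.2 CPM (median 34.1) with cytokines. The treated libraries lay above all basal libraries in each genotype, and WT replicate 1 was the highest WT library in both conditions. Mean *C3* in WT cells (± SD) was 1.71 ± 1.66 CPM without and 19.0 ± 5.86 CPM with cytokines, 11.1-fold apart. In KO cells the means were 4.30 ± 2.13 and 32.7 ± 4.78 CPM, 7.61-fold apart. On the log2 scale the fitted rise was 3.46 for WT (SE 0.43, edgeR adjusted p = 1.77e-07) and 2.92 for KO cells (SE 0.32, edgeR adjusted p = 1.85e-08). The WT value rested in part on WT replicate 1, without which it was 4.05 (edgeR adjusted p = 2.34e-09). Within single animals the log2 change was 2.63 to 4.72 (WT) and 2.12 to 4.60 (KO).

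*C1ra* encodes a mouse form of C1r, the protease that activates C1s. In WT cells it stood at 1.46, 1.46, 1.34, 0.976 and 0.993 CPM under basal conditions and at 6.37, 5.77, 6.57, 6.07 and 6.18 CPM with cytokines. In KO cells the range was 0.348 to 2.12 CPM (median 1.51) under basal conditions and 4.80 to 7.71 CPM (median 5.39) with cytokines. Both conditions were separated by a wide gap in each genotype, and KO replicate 8 was the lowest basal library (18 counts) and the highest treated one. edgeR fitted a rise of 2.31 log2 units for WT (SE 0.26, adjusted p = 2.89e-08) and of 1.99 for KO cells (SE 0.20, adjusted p = 4.22e-09).

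*C1s1* encodes a mouse form of C1s, the protease that cleaves C4 and C2. In WT cells it stood at 4.46, 3.77, 1.35, 3.57 and 3.66 CPM under basal conditions and at 15.4, 20.4, 26.2, 14.5 and 20.4 CPM with cytokines. In KO cells the range was 1.66 to 4.63 CPM (median 2.80) and 13.4 to 24.2 CPM (median 16.7), respectively. All treated libraries lay above all basal ones, and WT replicate 3 was both the lowest basal and the highest treated WT library. Fitted by edgeR, the rise was 2.53 log2 units for WT (SE 0.25, adjusted p = 3.95e-09) and 2.48 for KO cells (SE 0.20, adjusted p = 4.27e-11), with ratios of the mean CPM of 5.76 and 5.59.

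*C4b* encodes the C4 that is cleaved in the classical and lectin pathways and was the least expressed of the 6 genes per kb of exon. In WT cells it stood at 0.382, 2.17, 0.483, 1.83 and 1.65 CPM under basal conditions and at 1.03, 3.52, 2.13, 2.32 and 2.31 CPM with cytokines. In KO cells the range was 1.02 to 2.32 CPM (median 1.34) and 1.81 to 3.27 CPM (median 2.31), respectively. The ranges overlapped in both genotypes, but *C4b* was higher with cytokines in 5 of 5 WT and 8 of 8 KO animals when the libraries of an animal were compared. By edgeR, the WT difference of 0.80 log2 units (SE 0.37, adjusted p = 0.101) missed the threshold and the KO difference of 0.67 passed it (SE 0.29, adjusted p = 0.0804). With the mouse as a replicate block both passed (0.98, adjusted p = 0.00412 in WT, and 0.70, adjusted p = 0.00685 in KO cells). The KO call was lost without any 1 of KO replicates 1 to 7, with an adjusted p of up to 0.150, and the WT difference passed without WT replicate 1 (0.0982). The near-identical neighbour *C4a* stood at 1.14 ± 0.238 and 0.846 ± 0.335 CPM in WT cells and was not called in any contrast, and the counting could split reads between both genes.

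**Figure D2:**
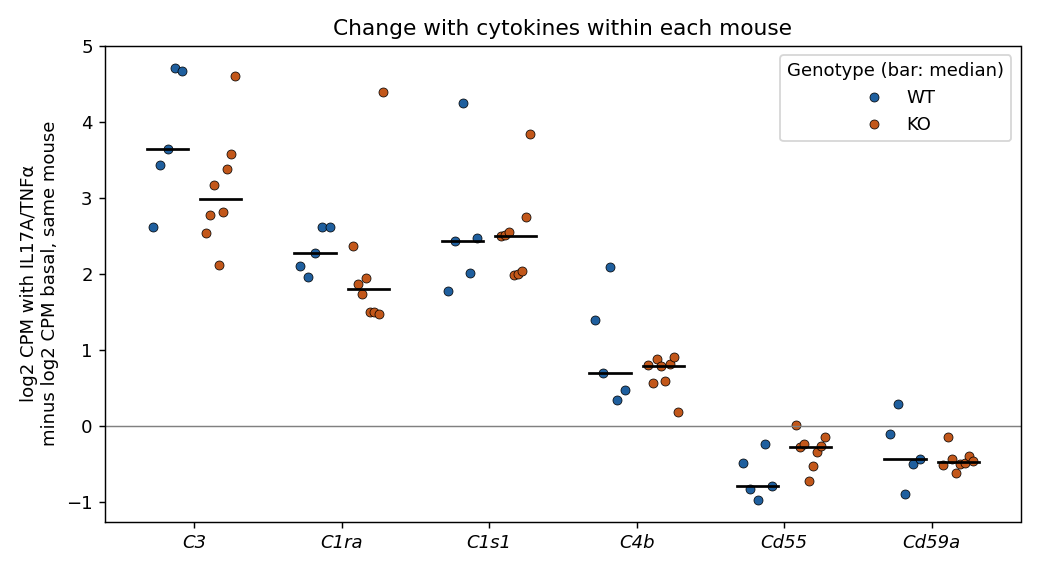
Log2 CPM with IL17A and TNFα minus log2 CPM under basal conditions in the same animal, for the 6 tested complement genes in 5 WT and 8 KO animals, where each point is an animal and the bar is the median. All 13 animals lie above 0 for *C3*, *C1ra*, *C1s1* and *C4b*, whereas 5 of 5 WT and 7 of 8 KO animals lie below 0 for *Cd55*.

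Of the membrane regulators followed, *Cd55* was called lower in WT cells and *Cd59a* was not called. *Cd55*, which speeds the decay of the C3 convertases, stood at 24.6, 27.3, 29.2, 20.97 and 31.5 CPM in WT cells under basal conditions and at 17.5, 15.4, 14.9, 17.8 and 18.3 CPM with cytokines. In KO cells the range was 16.4 to 21.7 CPM (median 19.6) and 12.97 to 17.4 CPM (median 16.0), respectively. The ranges did not overlap in WT cells and overlapped in KO cells, where 4 of 8 treated libraries lay below all basal ones. Fitted log2 differences were -0.67 for WT (SE 0.10, edgeR adjusted p = 3.66e-06) and -0.31 for KO cells (SE 0.08, edgeR adjusted p = 0.00274), the latter under the fold change of 1.5. With each animal left out in turn, the WT value stayed between -0.77 and -0.60.

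*Cd59a*, a mouse form of the inhibitor of the membrane attack complex, stood at 8.30, 7.07, 12.6, 8.73 and 9.74 CPM in WT cells under basal conditions and at 7.74, 8.68, 6.79, 6.16 and 7.19 CPM with cytokines. In KO cells the range was 8.54 to 13.3 CPM (median 11.8) and 6.96 to 9.86 CPM (median 8.42), respectively. The ranges overlapped in both genotypes, and *Cd59a* was lower with cytokines in 4 of 5 WT and 8 of 8 KO animals. Its log2 differences, -0.34 for WT (SE 0.13, edgeR adjusted p = 0.0522) and -0.45 for KO cells (SE 0.11, edgeR adjusted p = 0.00152), were under the fold change of 1.5.

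Counting members whose treated and basal libraries did not overlap gave 4 of 6 in WT (*C3*, *C1ra*, *C1s1* and *Cd55*) and 3 of 6 in KO cells (*C3*, *C1ra* and *C1s1*), where 20.5% and 11.8% of all genes tested had such ranges. The choice of members with earlier results known limits this comparison too. Markers of keratinocytes and of other cell types also moved with cytokines. The 12 keratinocyte markers summed to 56911–60699 CPM in WT basal and 42573–44576 CPM in WT treated libraries, and to 53520–59618 and 42889–44815 CPM in KO libraries, with 4 of 12 called lower in WT and 3 of 12 in KO cells. The median of the differentiation keratin *Krt1* was 1440 CPM in WT basal and 70.8 CPM in WT treated libraries, and that of *Krt10* was 969 and 25.8 CPM. WT medians of *Krt5*, *Krt14*, *Krt15*, *Col17a1*, *Dsg3*, *Dsp* and *Perp* were also lower with cytokines. Those of *Trp63* (358 and 389 CPM), *Itga6* (663 and 678 CPM) and *Itgb4* (763 and 891 CPM) were higher. The summed immune markers lay at 21.5–33.9 CPM in WT basal and 32.0–53.1 CPM in WT treated libraries, and at 20.8–40.8 and 27.7–56.4 CPM in KO libraries, with 1 of 5 tested markers called higher in WT cells by edgeR. The summed fibroblast markers lay at 42.9–49.2 and 32.4–38.6 CPM in WT and at 38.3–45.6 and 35.2–40.4 CPM in KO libraries, with 2 and 1 of 9 tested markers called lower. Melanocyte markers were called lower for 1 of 6 in WT and 3 of 6 in KO cells. The endothelial markers *Pecam1* and *Kdr* were called higher in both genotypes, while *Emcn* and *Cldn5* had 0 counts in all libraries and the 6 endothelial markers together stayed under 6 CPM. Their part in the complement values was not tested.

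The order of the genes changed with treatment when their levels were expressed per kb of exon. In WT basal cells *Cd55* stood highest at 4.52 ± 0.692 CPM per kb (SD, n = 5), above *Cd59a* (1.48 ± 0.331), *C1s1* (0.969 ± 0.339), *C1ra* (0.391 ± 0.0764), *C3* (0.330 ± 0.320) and *C4b* (0.215 ± 0.135), and of these neighbours only *Cd55* and *Cd59a* had ranges apart. With cytokines *C1s1* (5.58 ± 1.35 CPM per kb) and *C3* (3.67 ± 1.13) stood at the top in WT cells, with overlapping ranges, followed by *Cd55* (2.84 ± 0.262), whose range overlapped that of *C3*. In KO cells with cytokines *C3* (6.31 ± 0.922 CPM per kb, n = 8) and *C1s1* (5.01 ± 0.951) again led with overlapping ranges, and both lay above *Cd55* (2.68 ± 0.244) in every library.

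**Figure D3:**
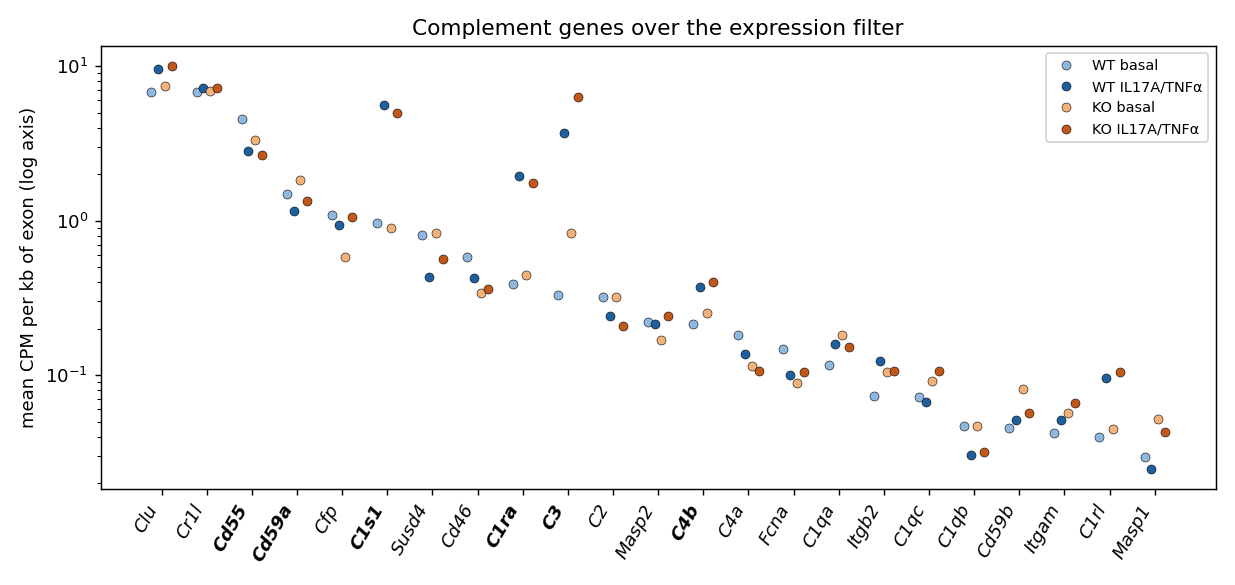
Mean CPM per kb of exon on a log axis in the 4 groups for the 23 complement genes over the expression level tested, ordered by WT basal level, with the 6 followed genes in bold. *C3* moves from 0.330 to 3.67 CPM per kb in WT cells and *C1s1* from 0.969 to 5.58, whereas *Cr1l* and *Clu* are near the top in all groups.

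The genotypes were then compared to ask whether complement expression differed between KO and WT cells. Because the KO animals were bred as homozygotes, an effect of genotype cannot be told apart from one of litter or breeding line. Under basal conditions *C3* was higher in KO cells, which is 1 of 6 genes, where 2.68% of all genes tested were called (1.61% higher, 1.07% lower). Mean *C3* was 1.71 ± 1.66 CPM for the 5 WT and 4.30 ± 2.13 CPM for the 8 KO libraries (± SD), and edgeR gave a log2 difference of 1.33 (SE 0.39, adjusted p = 0.0272). The ranges overlapped, with 4 of the 8 KO libraries higher than any WT library, since WT replicate 1 (4.62 CPM) lay within the KO range and KO replicate 8 (0.929 CPM) within the WT range. Of the markers of other cell types tested under basal conditions, 1 endothelial gene was called higher in KO cells, and no fibroblast, immune or melanocyte gene passed both thresholds. Of the 12 keratinocyte markers, 1 was called lower in KO cells under basal conditions and 2 with cytokines. The part of these markers in the *C3* difference was not tested. The *C3* value depended on single animals. Without WT replicate 1 it was 2.12 (adjusted p = 0.000131) and without KO replicate 8 it was 1.48 (0.00486), whereas the call was lost without WT replicate 4 (1.10, 0.107) or WT replicate 5 (1.15, 0.101), and when only the basal groups were fitted (1.33, 0.136).

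With cytokines the *C3* difference of 0.78 log2 units (SE 0.34, edgeR adjusted p = 0.267), between means of 19.0 ± 5.86 and 32.7 ± 4.78 CPM, missed the threshold, although 6 of the 8 KO libraries were higher than any WT library. It passed with the mouse as a replicate block (0.81, adjusted p = 0.0167), when only the groups with cytokines were fitted (0.79, 0.0166) and without WT replicate 1 (0.98, 0.0295). It missed the threshold with any other single animal left out, with an edgeR adjusted p of up to 0.497. Among the other alternatives the adjusted p reached 0.310. For KO against WT with cytokines, edgeR called 0 of 6 genes, 1 (*C3*) had an unadjusted p under 0.05, and DESeq2 called 0 as well. Over all genes edgeR called 0.704% (0.148% higher, 0.556% lower).

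**Figure D4:**
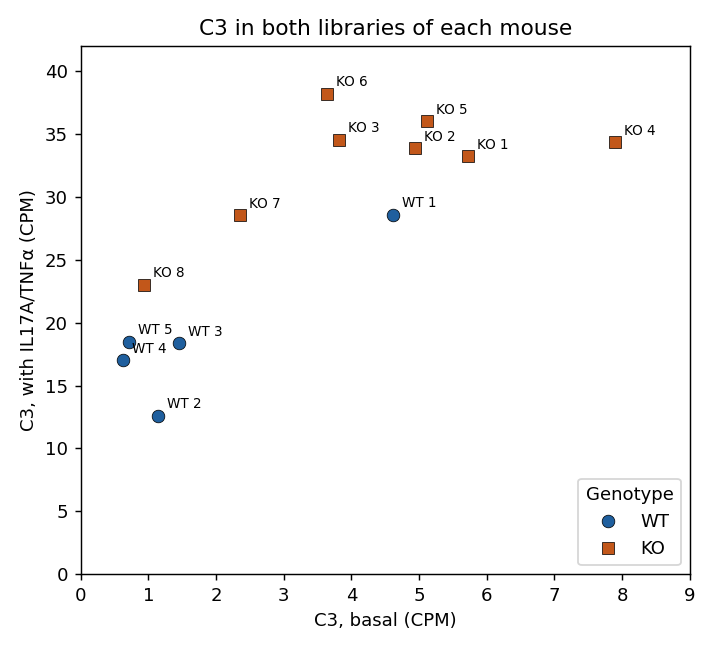
*C3* in CPM under basal conditions (horizontal axis) and with IL17A and TNFα (vertical axis), where each point is 1 of 13 animals, labelled by genotype and replicate number. WT replicate 1 (4.62 and 28.6 CPM) lies beside KO animals, and KO replicate 8 (0.929 and 23.0 CPM) is the KO animal nearest to the other WT animals.

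*Cd55* was lower in KO cells under basal conditions, at 19.6 ± 1.87 CPM against 26.7 ± 4.09 CPM (mean ± SD of 8 KO and 5 WT libraries), with 5 of the 8 KO libraries lower than any WT library. This difference of -0.44 log2 units (SE 0.09, edgeR adjusted p = 0.00122) was under the fold change of 1.5. With cytokines the means were 15.8 ± 1.44 CPM (KO) and 16.8 ± 1.55 CPM (WT), a log2 difference of -0.08 (edgeR adjusted p = 0.732). The basal means of *Cd59a* were 11.5 ± 1.62 CPM (KO) and 9.29 ± 2.08 CPM (WT), a log2 difference of 0.31 (edgeR adjusted p = 0.116), and leaving out single animals moved this adjusted p between 0.0206 and 0.328.

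*C1ra*, *C1s1* and *C4b* had basal genotype differences of 0.17, -0.11 and 0.25 on the log2 scale, with edgeR adjusted p of 0.720, 0.833 and 0.726. With cytokines their differences were -0.15, -0.16 and 0.11, with adjusted p of 0.823, 0.808 and 0.930. The ranges of both genotypes overlapped for these 3 genes in each condition. No tested gene of the 6 had KO and WT ranges apart. Over all genes the share was 3.03% under basal conditions and 1.08% with cytokines, too small for 6 genes to show a lower one.

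**Figure D5:**
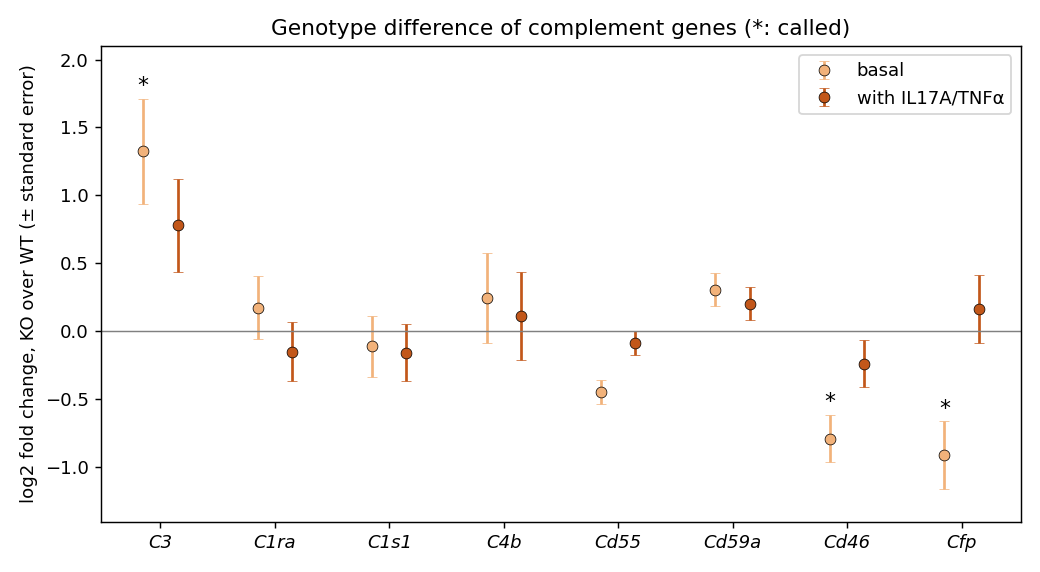
Log2 fold change of KO over WT cells under basal conditions and with IL17A and TNFα for the 6 tested complement genes and for *Cd46* and *Cfp*. Bars are approximate standard errors derived from the edgeR F statistic, and a star marks a called gene. *C3* is called higher at 1.33 and *Cd46* and *Cfp* are called lower at -0.79 and -0.91 under basal conditions, and none of the 8 is called with cytokines.

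Whether the response to cytokines differed between the genotypes was tested as an interaction. None of the 6 genes was called by edgeR or by DESeq2, where edgeR called 0.219% of all genes (0.0355% higher, 0.184% lower in KO than in WT cells). *Cd55* was the only one with an unadjusted p under 0.05 (0.00837), with a log2 difference of 0.36 between the responses (SE 0.13, adjusted p = 0.296), and its adjusted p lay between 0.147 and 0.578 when single animals were left out. For *C3* the difference was -0.54 (SE 0.50, adjusted p = 0.832), and without WT replicate 1 it was -1.14 (adjusted p = 0.268). For *C1ra*, *C1s1*, *C4b* and *Cd59a* it lay between -0.32 and -0.05.

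The 3 genes under the expression level had few counts. *Serping1*, the inhibitor of C1r and C1s, had 0 counts in all 5 WT basal libraries and 2, 34, 8, 4 and 22 counts in WT libraries with cytokines. In KO cells it had 6, 0, 6, 6, 8, 4, 0 and 0 counts under basal conditions and 12, 4, 6, 6, 0, 8, 18 and 12 with cytokines. It was thus listed in every treated WT library and no basal one, whereas the KO conditions overlapped. Fitted without a filter on low counts, *Serping1* had an edgeR adjusted p of 0.000922 for cytokines in WT, 0.329 for cytokines in KO and 0.0368 for the basal genotype difference (edgeR). All 17 of its counts above 0 were even, as were 85.9% of all counts from 2 to 21 in the table, so 1 count was not taken to be 1 RNA fragment.

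*Cfi*, which encodes the protease that inactivates C3b and C4b, had 8, 4 and 10 counts in WT replicates 2, 3 and 4 with cytokines and 0 in the other 23 libraries. *Cfb*, the protease of the alternative pathway convertase, had 10 and 2 counts in WT replicates 3 and 4 with cytokines, 6 and 2 in KO replicates 3 and 7 with cytokines, 1 in KO replicate 1 under basal conditions, and 0 elsewhere. Without a filter, the adjusted p for cytokines in WT was 0.0932 for *Cfi* and 0.0964 for *Cfb* (edgeR), on 22 and 12 counts over the treated WT libraries. Because how reads shared by overlapping genes were counted is not given in the sources used here, the low counts of *Cfb* do not show that its RNA was absent.

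Other genes of the cascade were read from a list of 48 that holds no followed gene and was also chosen with earlier results known. Of these 17 were over the expression level, 31 were under it and 9 of the 31 had 0 counts in all libraries, among them the lectins *Mbl1* and *Mbl2* and the terminal components *C7* and *C9*. With cytokines 0 were called higher and 1 lower in WT, and 1 higher and 1 lower in KO cells, of 17 tested in each, where 8.65% and 5.26% of all genes tested were called higher and lower in WT and 6.33% and 4.55% in KO cells, with median log2 fold changes of -0.11 and 0.07. Under basal conditions 2 of 17 were lower and 0 higher in KO cells, against 1.07% lower and 1.61% higher over all genes. With cytokines, and for the interaction, 0 were called by edgeR or DESeq2, and 1 and 2 genes had an unadjusted p under 0.05.

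*Susd4*, a membrane complement inhibitor, stood at 9.55, 6.40, 8.50, 9.46 and 7.44 CPM in WT basal libraries and at 6.07, 3.05, 4.14, 4.81 and 4.23 CPM with cytokines, with no overlap. Fitted log2 differences were -0.89 for WT (SE 0.16, edgeR adjusted p = 6.78e-05) and -0.56 for KO cells (edgeR adjusted p = 0.00102), the latter under the fold change of 1.5. *C2*, which forms the classical convertase with C4b, fell in KO cells from 1.38 ± 0.357 to 0.901 ± 0.144 CPM (log2 -0.61, edgeR adjusted p = 0.0287). Its call was lost without KO replicate 2 or 7 and with the mouse as a replicate block, where the change was -0.58 (adjusted p = 0.0717) and under the fold change of 1.5. *C2* shares 38.4% of its exon bases with *Gm20547*.

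*Cfp* encodes properdin, which stabilises the alternative pathway convertase. It stood at 1.61, 1.34, 1.11, 2.63 and 2.79 CPM in WT basal libraries and from 0.619 to 1.72 CPM (median 0.931) in KO basal libraries, with 6 of the 8 KO libraries lower than any WT library. Between genotypes this was -0.91 log2 units (SE 0.25, edgeR adjusted p = 0.0179). *Cfp* lies on the X chromosome and the sex of the animals was not considered, so a part of sex in this difference was not tested. In KO cells cytokines raised *Cfp* to 1.83 ± 0.336 CPM (log2 0.86, edgeR adjusted p = 0.00339), in 8 of 8 animals, and in WT cells the change was -0.21 (adjusted p = 0.625). The difference between these responses was 1.08 (adjusted p = 0.255) and did not pass the threshold.

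*Cd46*, a cofactor for the cleavage of C3b and C4b, stood at 5.00, 3.68, 3.41, 4.59 and 5.58 CPM in WT basal libraries and from 1.95 to 3.43 CPM (median 2.57) in KO basal libraries. Of the 8 KO libraries, 7 were lower than any WT library. KO and WT cells differed by -0.79 log2 units (SE 0.17, edgeR adjusted p = 0.00285). The basal calls of *Cd46* and *Cfp* held without any single animal, with an edgeR adjusted p of up to 0.0191 for *Cd46* and 0.0969 for *Cfp*. With cytokines the means were 2.74 ± 0.589 CPM (KO) and 3.23 ± 0.647 CPM (WT), a log2 difference of -0.24 (edgeR adjusted p = 0.572).

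*Clu*, which encodes the soluble regulator clusterin, rose by 0.50 in WT and 0.44 in KO cells on the log2 scale (edgeR adjusted p = 0.000156 and 3.62e-05), under the fold change of 1.5. *Cr1l*, the mouse membrane regulator Crry, stood at 84.1 ± 5.00 and 90.2 ± 6.94 CPM in WT cells without and with cytokines and at 85.3 ± 2.84 and 89.4 ± 6.34 CPM in KO cells. *Clu* and *Cr1l* were singled out after their values were seen. Of the near-identical neighbours, *C1rb* had at most 17, *C1s2* at most 14 and *Cd55b* at most 7 counts in a library, and *Cd59b* stood between 0.209 and 0.372 CPM in the group means.

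Across the 26 libraries, the log2 CPM of *C1ra* and *C1s1* had a Pearson correlation of 0.94, and *C3* had 0.89 with *C1ra* and 0.86 with *C1s1*. After subtracting the group means these were 0.48, 0.54 and 0.28, and *C3* and *C4b* had -0.59. Among the genes most like *C3* were *Col8a1*, *Clstn1* and *Ifitm3* (all 0.98), and *Col8a1* (0.91) and *Anln* (0.90) after subtracting the group means. For *C1s1* these were *Bcl2l15*, *Lcn2* and *Gsap* (all 0.97), and *Itgb6* (0.85), *Rapgef3os2* (0.75) and *Srd5a3* (0.74), and for *C1ra* they were *Birc3*, *Gsap* and *Cgnl1* (all 0.95), and *Gm43059* (0.85), *Zmat1* (0.80) and *Dhdh* (0.76). For *Cd55* the plain correlation was highest with *Araf* (0.91), *Tmem87a* (0.90) and *Mtdh* (0.90), for *C4b* with *Mprip* (0.82) and *Rars* (0.81), and for *Cd59a* with *Dennd5b* (0.80), *Sh3pxd2a* (0.78) and *Timp3* (0.77). After subtracting the group means, *Cd55* was most like *2010008C14Rik* (0.83), *Tasor2* (0.76) and *Rbm39* (0.75), *C4b* was most like *Lce3e* (0.90), *Eif4g1* (0.85) and *Rbsn* (0.81), and *Cd59a* was most like *Ppp1r26* (0.71), *Calhm5* (0.65) and *1700028J19Rik* (0.63). Libraries share animals and depth, and these values describe the libraries without a test.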

How the data were processed

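Bulk RNA sequencing of primary keratinocytes gave 26 libraries from 5 WT and 8 KO mice, grouped by the genotype and treatment in the labels. Per the labels and the study's methods, the authors prepared TruSeq stranded libraries, aligned reads to mm39 with STAR 2.7.10b, counted them per gene with featureCounts 2.0.6 and the GENCODE annotation, and deposited raw counts for 56738 symbols. The authors also deposited log2 values of normalized counts with a pseudocount of 1, which were used in an alternative and matched the counts for the 9 genes within 0.01. The strand setting and the treatment of reads shared by genes are not given in the sources used here.

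The 16893 genes whose normalized count averaged over 10 were tested in edgeR 4.0.16 (R 4.3.3, TMM) by quasi-likelihood, with all libraries and no covariate. As in the study's methods, calls needed a fold change above 1.5 at an adjusted p (Benjamini-Hochberg) below 0.1. A prior count of 1 entered log2 CPM. At total counts of 42072745 to 78102858 per library, depth limits genes near the floor of 3 counts most. Because most small counts were even, 3 counts were not taken to be 3 RNA fragments. The procedure was tested on simulated data.

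The members, the wider list and the markers were chosen with earlier results of these data known. Named were all members, wider genes called in any contrast, near-identical neighbours, *Pla2g4d* and for each tested member the 3 genes with the highest correlation, of which some are not reported here. Libraries with the same genotype and number in their titles were taken to be paired, as from the same animal, which the labels do not state. Over genes, the deviations of paired libraries had correlations of 0.000509 to 0.254, with a median of 0.106 and 8 of 13 over 0.1.

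Alternatives were DESeq2 1.42.0, DESeq2 size factors, limma 3.58.1 on the log2 values, no filter, filterByExpr, fold thresholds of none and 2, fits of the compared groups alone, a replicate block for the mouse (for KO against WT with duplicateCorrelation) and each mouse left out. Positions and overlaps come from GRCm39 with a later GENCODE release than that of the authors, and promoters from RefSeq on GRCm38.p6.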

Additional observations from a re-analysis of the deposited data

Results flagged for a closer look

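Of 43 groups of libraries examined over 11 complement genes, 4 held a library far from the rest of its group. The cut-off was set to flag about 5% of groups of independent normal values. CPM were not checked for this, so the count of 4 is not read against that share. *C3* reached 4.62 CPM in WT basal replicate 1, where the next highest WT basal library had 1.45 CPM. *C1ra* reached 7.71 CPM in KO replicate 8 with cytokines, where the next highest had 6.05 CPM. *C1s1* stood at 1.35 CPM in WT basal replicate 3, where the next lowest had 3.57 CPM. *C2* stood at 0.614 CPM in KO basal replicate 3, where the next lowest had 1.23 CPM.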

How the results depend on the processing

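The cytokine responses of *C3*, *C1ra* and *C1s1* in both genotypes and of *Cd55* in WT cells kept their direction and their call under every alternative run, except that *Cd55* was not called at a fold over 2. The genotype differences of *C3* and the cytokine responses of *C4b* depended on single mice, and *Serping1*, *Cfb* and *Cfi*, with few counts, were called in WT cells without the filter.

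Of the complement members, 4 were called with cytokines in WT cells (5 without a fold threshold, 3 at a fold over 2, 7 without a filter on low counts, 4 to 5 with a mouse left out) and 4 in KO cells (6 without a fold threshold, 3 at a fold over 2, 3 to 4 with a mouse left out). Between genotypes under basal conditions 1 was called, against 2 without a fold threshold (*Cd55* added), 2 without a filter and 2 with filterByExpr (*Serping1* added), 0 with only the groups compared and 0 to 1 with a mouse left out. With cytokines 0 were called, against 1 (*C3*) with the mouse as a replicate block, 1 with only the groups compared and 0 to 1 with a mouse left out. The replicate block also added *C4b* in WT cells, for a count of 5, removed *C2* in KO cells and changed no other call.

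In the wider list, 0 genes were higher with cytokines in WT cells, against 1 without a fold threshold (*Clu*) and 1 without a filter (*C1rb*). In WT cells 1 was lower, against 2 without a fold threshold (*Cd46* added), 0 at a fold over 2, 2 without a filter (*Cpn1* added) and 1 to 2 with a mouse left out (*Cd46* without WT replicate 2, *C2* without WT replicate 3). In KO cells 1 was higher, against 2 without a fold threshold (*Clu* added), 0 at a fold over 2, 5 without a filter (*C1rb*, *C1s2* and *Cfd* among those added) and 2 with only the groups compared (*C1rl* added). In KO cells 1 was lower, against 2 without a fold threshold (*Susd4* added), 0 at a fold over 2, 2 without a filter (*Cr2* added), 0 with limma, 0 with the replicate block and 0 to 2 with a mouse left out. Under basal conditions 2 were lower in KO cells, against 0 at a fold over 2.

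Directions turned only for differences near 0 when a mouse was left out. The basal genotype difference of *C1s1* lay between -0.31 and 0.013, turning without WT replicate 1, and the *C4b* difference with cytokines lay between -0.067 and 0.33, turning without WT replicate 1. The interaction lay between -0.28 and 0.062 for *C4b* and between -0.24 and 0.29 for *C1s1*, where WT replicate 3 gave the upper end of both, and between -0.26 and 0.051 for *Cd59a*, turning without WT replicate 2. For *C1s1* it also turned, to 0.056, 0.027 and 0.029, without KO replicates 4, 5 and 6. Besides the changes given in the report, *Susd4* in KO cells was called without KO replicates 2, 4 or 8. The causes were not tested.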
